A study of Mus musculus with 13 samples.

Results

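Mesenchymal stromal cells (MSCs) sorted from recovered mice were compared with MSCs sorted from healthy mice, using the 4 recovered and 3 healthy libraries among the 13 RNA-seq libraries of the series, chosen by their sample titles. The study profiled MSCs of healthy, pre-leukemic and recovered mice, and its title places these cells in a leukemic marrow environment that MSCs change by way of macrophages. The protocol names 3 kinds of mice: pre-leukemic, control, and pre-leukemic mice that had been given MSCs, and the recovered libraries are read here as the last of these. All mice had a C57BL/6J background, the strain label of every library is C57BL/6, and the cells came from nucleated marrow and compact bone. The sort markers, the genotype and promoter that make mice pre-leukemic, the age, the dose and timing of the MSC treatment, and whether each library is a separate animal are not stated in the labels. The p-values below therefore measure only the spread between these samples, which may be technical. The comparison asks how far the MSCs of treated mice match those of healthy mice.

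MSCs of the bone marrow are the perivascular and bone-lining cells that give rise to osteoblasts, adipocytes and chondrocytes. They also make Cxcl12 and Kit ligand, which hold and feed blood stem cells, and they secrete chemokines and matrix that other marrow cells respond to. Inflammatory signals through NF-kappa-B, STAT3 and interferon receptors are known to raise acute phase and chemokine genes in stromal cells.

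Values are FPKM, read density scaled for transcript length and library size as deposited, so levels of different genes can be set side by side. Healthy 1 and 3 differed by little more than sampling noise, with a correlation across genes of 0.983, and were averaged into 1 sample. Healthy 2 correlated at 0.891 and 0.890 with them, and pairs of recovered libraries at 0.739 to 0.809, so the recovered libraries varied more among themselves. Pairs of a healthy and a recovered library correlated at 0.712 to 0.853, a range that holds that of the recovered pairs. Recovered 1 correlated at 0.853 with healthy 1 and 3 and at 0.758 to 0.809 with the other recovered libraries. Recovered 3 stood farthest from the other libraries on the first principal component of the 7 libraries (32% of the variance) and recovered 2 lay at the lower end of the second (23.2%). By estimated depth, 3 reads on a 1 kb transcript were worth 0.951 to 1.159 FPKM in healthy libraries and 1.175, 1.3, 1.916 and 1.045 FPKM in recovered libraries 1 to 4. Recovered 2 and 3 were thus shallower than every healthy library, while recovered 4 lay within the healthy range. Recovered 1 was too close to healthy 2 for the estimate to rank them. These floors cover counting error only. The sort label was checked against lineage genes. Decorin (Dcn), a stromal proteoglycan, stood at 11752 to 12429 FPKM in healthy and, lower without overlap, at 3830 to 6383 FPKM in recovered libraries. The leukocyte antigen Ptprc (CD45) was at 0.0797 to 1.25 FPKM in healthy libraries and at 0.483, 16.4, 1.21 and 0.365 FPKM in recovered libraries 1 to 4.

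Few genes separated the groups in the test, and they fell into a small abundant set that rose and a larger, mostly scarce set that fell. Of 13118 genes tested with limma on log2(FPKM + 1), 9 were higher in recovered MSCs and 94 were lower at a Benjamini-Hochberg adjusted p under 0.05. These are 0.0686% and 0.717% of the genes, 0.785% together. At an unadjusted p under 0.05 the counts were 443 higher and 902 lower, and the median change over all genes was -0.08 on the log2 scale. With the pre-leukemic libraries in the same fit to share the estimate of spread, 68 genes were higher (0.518%) and 261 lower (1.99%), among them 6 of the 9 and 51 of the 94. Every recovered library lay above every healthy library for 871 genes (6.64%) and below for 1403 genes (10.7%). All 9 genes that rose had at least 46.5 FPKM in each recovered library. Of the 94 that fell, 56 were listed at 0 in all 4 recovered libraries, and 51 had a healthy mean under 5 FPKM. For 29 of the 94 no library outside the healthy group reached 1 FPKM, and 47 had fewer than 3 such libraries and so passed the filter on low values with the help of the healthy libraries. Their number is therefore no support for a fall, and without that filter 0 genes were called lower. Only 4 of the 94 kept a recovered mean of at least 10 FPKM: Chad, Col1a2, Fmod and Thbs1.

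**Figure D1:**
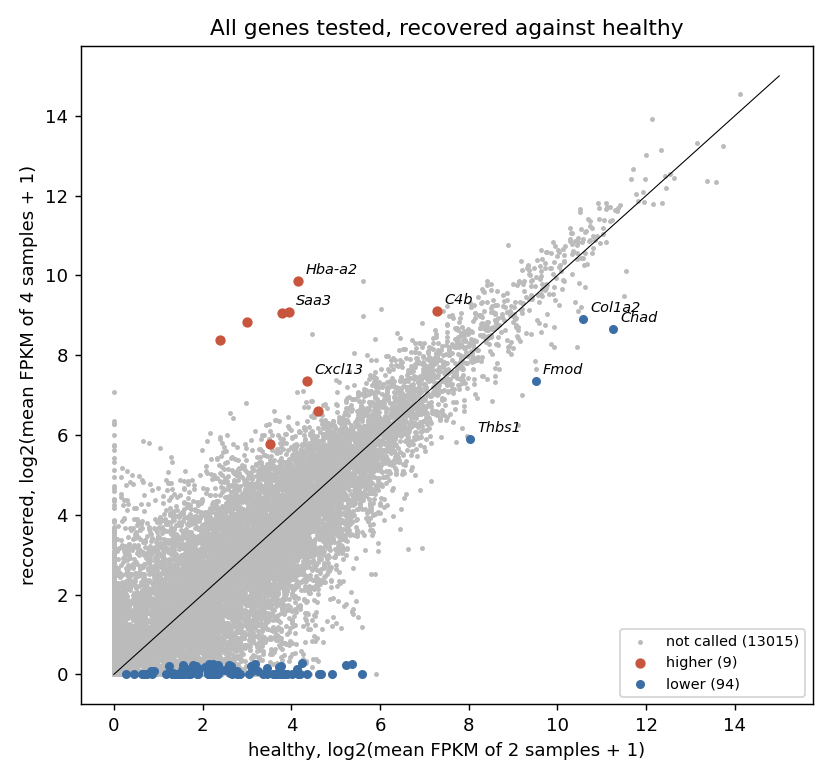
Each point is a gene tested, placed by log2(mean FPKM + 1) in the 2 healthy samples (x axis) and the 4 recovered samples (y axis), and the line marks equal levels. The 9 genes called higher (red) lie above the line, while most of the 94 called lower (blue) lie along the bottom, near 0 in recovered MSCs.

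These calls rested on all 4 recovered libraries. Leaving out recovered 2, 3 or 4 left 0 genes called by limma, with 1274, 1455 and 1363 genes at an unadjusted p under 0.05, and leaving out recovered 1 left 2, Hba-a1 and Hba-a2. Over all settings tried the change of Hba-a1 ran from 5.64 to 5.96 and that of Col1a2 from -1.93 to -1.53. Falls of genes at or near 0 in recovered MSCs moved more. The change of Ucma ran from -8.02 to -4.04, that of Mpo from -7.76 to -4.84, that of Ostn from -7.89 to -4.56 and that of Col9a1 from -5.26 to -1.77.

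The largest rises were the 4 adult globin genes. Hba-a1 and Hba-a2 encode alpha-globin, and Hbb-bs and Hbb-bt encode the beta-globins of the C57BL/6 haplotype, the oxygen carriers of red cells. Promoter windows of the 120 bases before the RefSeq start (GRCm38.p6, 5′ to 3′ on the gene's strand) were searched for motifs because the 4 genes moved together, with that of Saa3, the next largest rise. Those of Hba-a2 and Saa3 are shown. Capitals mark, on either strand, the CACCC box bound by Klf1-type factors, the CCAAT box common to many promoters and the TATAA box in the Hba-a2 window. In Saa3 they mark TTNNGNAA, a C/EBP-type motif. The windows are Hba-a1 chr11:32283552-32283671 (+), Hba-a2 chr11:32296372-32296491 (+), Hbb-bs chr7:103827929-103828048 (-), Hbb-bt chr7:103813924-103814043 (-) and Saa3 chr7:46715677-46715796 (-).
Hba-a2: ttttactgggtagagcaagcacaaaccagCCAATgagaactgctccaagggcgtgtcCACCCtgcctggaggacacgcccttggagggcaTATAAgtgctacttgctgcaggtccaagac
Saa3: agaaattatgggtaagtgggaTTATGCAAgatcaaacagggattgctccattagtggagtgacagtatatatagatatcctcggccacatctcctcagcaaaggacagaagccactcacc
The starts in RefSeq and GENCODE differ. Of the 120 bases, 120 in Hba-a1, 73 in Hbb-bt and 37 in Hbb-bs lie in an untranslated region of the GENCODE models, so the letters of these 3 windows are not printed. The overlap is 3 bases in Hba-a2 and 24 bases in Saa3. Each globin window held all 3 boxes, as did 0.688% of 32851 promoter windows of that length. Taken singly, CACCC was in 31.7% of windows, CCAAT in 21.3% and TATAA in 11.8%, and in Hbb-bt a reversed CCAAT lies directly beside a forward one without overlap. The Saa3 window held TTNNGNAA, as did 18.0% of windows, and no match to the kappa-B-type motif searched, found in 2.05%. A match describes letters only.

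Hba-a1 (chromosome 11, 32283511 to 32284465, plus strand, GRCm38) stood at 6.03, 7.16 and 7.49 FPKM in healthy libraries 1 to 3 and at 315, 403, 593 and 498 FPKM in recovered libraries 1 to 4. The change was 5.79 ± 0.30 (SE) on the log2 scale, 65.0-fold by the means, with an adjusted p of 0.00524. Hba-a2 stood at 21.6, 16.4 and 13.2 FPKM against 596, 954, 1188 and 952 FPKM, a change of 5.65 ± 0.30 (adjusted p = 0.00524). No recovered library came near any healthy one for either gene. Hbb-bs (chromosome 7, 103826534 to 103828096, minus strand) stood at 9.43, 17.0 and 8.17 FPKM against 502, 490, 450 and 679 FPKM, a change of 5.31 ± 0.32 (adjusted p = 0.00524). Hbb-bt stood at 9.06, 1.93 and 4.13 FPKM against 237, 308, 407 and 375 FPKM, a change of 6.11 ± 0.45 (adjusted p = 0.00966). Hba-a1 and Hba-a2, like Hbb-bs and Hbb-bt, are near-identical copies, so the split of reads within each pair is uncertain while the rise is shared by all 4. Without recovered 1, 2, 3 or 4 the adjusted p of Hba-a1 was 0.0495, 0.0723, 0.0631 and 0.0642, and that of Hbb-bs 0.061, 0.0723, 0.0631 and 0.0642. Over all settings tried, the adjusted p of Hba-a1 ran from 3.13e-05 to 0.381 and that of Hbb-bs from 7.4e-05 to 0.381.

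The other red cell genes did not follow the globins. Globins summed to 33.0 to 46.1 FPKM in healthy and 1650 to 2640 FPKM in recovered libraries, or 0.00548% to 0.00752% against 0.264% to 0.359% of all FPKM. Gata1, the master transcription factor of erythroid cells, and Epor, the erythropoietin receptor, were listed at 0 in all 7 libraries. Alas2, the erythroid haem synthesis enzyme, was listed at 0 in recovered 1, 2 and 3 and at 2.22 FPKM in recovered 4. Klf1, an erythroid transcription factor, was at 44.8 FPKM in recovered 2 and 0 in the other recovered libraries. Of the 13 erythroid markers 8 were tested, the 4 globins rose and no other passed the test. The summed level of the 13 was 63.5 to 75.2 FPKM in healthy and 1660 to 2660 FPKM in recovered libraries. In recovered 1 and 3, where Alas2 and Klf1 were both listed at 0, 3 reads on 1 kb were worth 1.175 and 1.916 FPKM. A low level of these genes could be missed there. The part of RNA from red cells in the rise was not tested. In bulk samples, more cells of a type and more RNA per cell cannot be told apart.

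**Figure D2:**
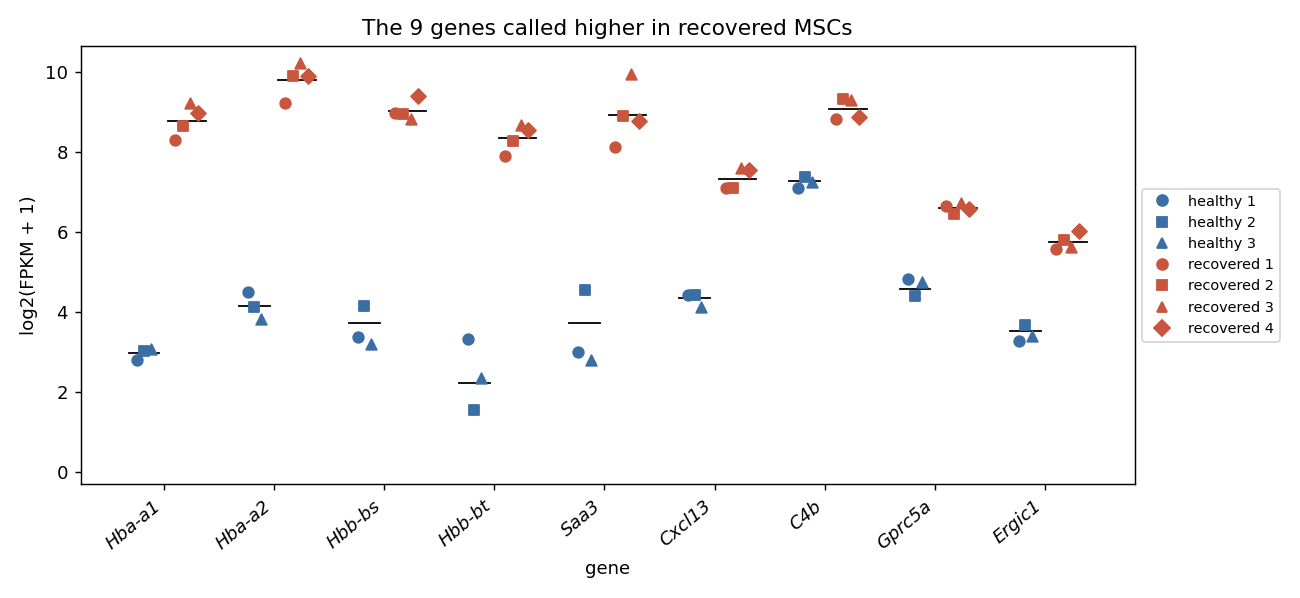
Log2(FPKM + 1) of the 9 genes called higher, with 1 point per library, healthy in blue and recovered in red, and a line at each group's mean (healthy 1 and 3 averaged first). The groups do not overlap for any of the 9, and the gap is widest for the globins and Saa3.

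Acute phase and chemokine genes made up the next rises. Saa3 (chromosome 7, 46711998 to 46715700, minus strand) encodes serum amyloid A3, an acute phase protein that stromal cells and macrophages make in inflammation. It stood at 6.98, 22.4 and 5.99 FPKM in healthy libraries 1 to 3 and at 276, 477, 983 and 435 FPKM in recovered libraries 1 to 4. The change was 5.20 ± 0.66 (adjusted p = 0.0444), and the lowest recovered library was above the highest healthy one. Cxcl13 (chromosome 5, 95956951 to 95961068, plus strand), the chemokine that draws B cells into follicles, stood at 20.7, 20.5 and 16.6 FPKM against 136, 135, 192 and 188 FPKM, a change of 2.98 ± 0.25 (adjusted p = 0.0144). Without 1 recovered library the adjusted p of Saa3 was 0.106 to 0.178 and that of Cxcl13 0.062 to 0.0727. Over all settings tried these ran from 0.00109 to 0.381 for Saa3 and from 0.00448 to 0.381 for Cxcl13.

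Among 35 tested inflammatory cytokine and chemokine genes these were the only 2 that passed, both higher, and the median change was 0.93 against -0.08 over all genes. The groups did not overlap for 15 of the 35, with recovered above for 14 and below for 1, Il11. The shares over all genes tested were 6.64% above and 10.7% below. The following members did not pass the test. Cxcl10, an interferon-induced chemokine for T cells, stood at 22.1, 18.8 and 25.3 FPKM in healthy and at 228, 176, 644 and 420 FPKM in recovered libraries (log2 change 3.87, adjusted p = 0.0659). Il1rn, the antagonist of the interleukin-1 receptor, had a change of 2.34 (adjusted p = 0.0744), and Ccl7, a monocyte chemokine, one of 1.67 (adjusted p = 0.0873). Lcn2, lipocalin 2, which binds bacterial siderophores, was listed at 0 in every healthy library and at 54.6, 13.9, 152 and 30.7 FPKM in recovered ones (adjusted p = 0.112). Ccl2, which recruits monocytes, stood at 229, 414 and 225 FPKM against 642, 825, 937 and 696 FPKM (adjusted p = 0.195). Il6, a cytokine of the same inflammatory programme, overlapped between the groups, at 174, 151 and 191 FPKM against 62.3, 144, 71.6 and 184 FPKM. Il1b was listed at 0 in all 7 libraries.

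**Figure D3:**
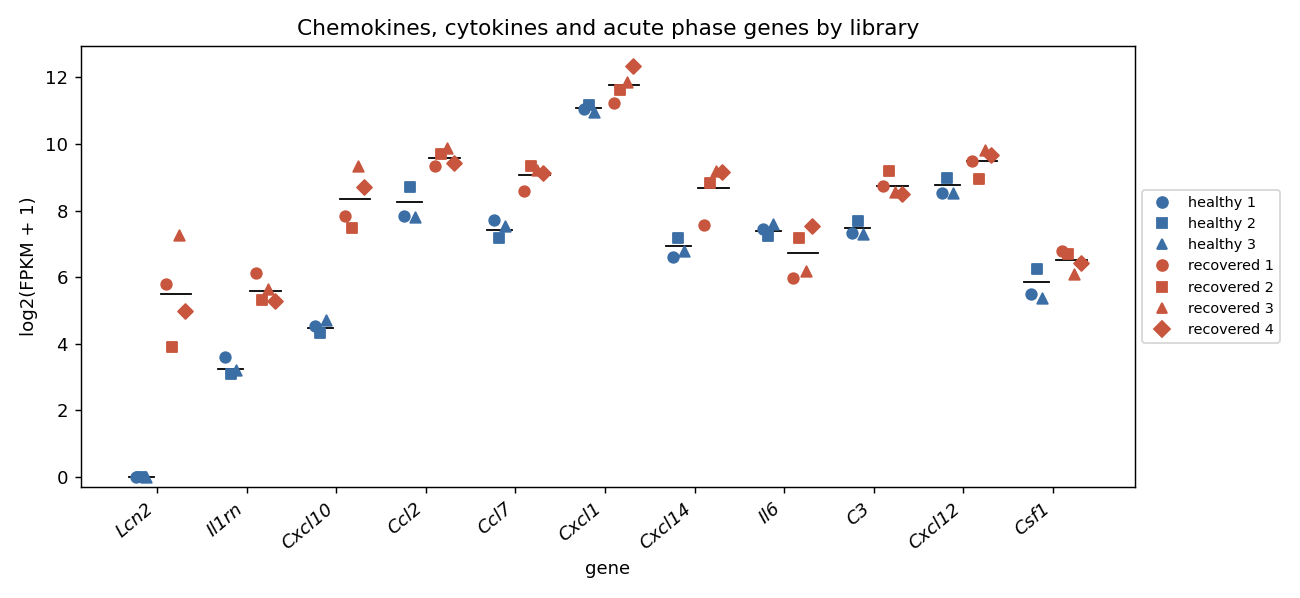
Log2(FPKM + 1) of 11 chemokine, cytokine and acute phase genes chosen after their values were seen, with 1 point per library and a line at each group's mean. Lcn2, Il1rn, Cxcl10, Ccl2, Ccl7, Cxcl1, Cxcl14 and C3 show no overlap with recovered above, Il6, Cxcl12 and Csf1 overlap, and none of the 11 passed the test.

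C4b and the complement genes were split. C4b (chromosome 17, 34728380 to 34743882, minus strand), the C4 component of the classical pathway, stood at 137, 166 and 152 FPKM in healthy libraries 1 to 3 and at 449, 645, 627 and 468 FPKM in recovered libraries 1 to 4. The change was 1.79 ± 0.23 (adjusted p = 0.0442). It was the only 1 of 18 tested complement genes that passed, and the median of the list was 0.10. C4b has a near-identical neighbour, C4a, listed at 0 to 19.2 FPKM in recovered libraries, so reads may be shared between them. C3, the central component, had a change of 1.26 (adjusted p = 0.154), while Clu (clusterin), an extracellular chaperone that limits complement, stood at 1167 to 1545 FPKM in healthy and 383 to 852 FPKM in recovered libraries (adjusted p = 0.348). Without healthy 2 the adjusted p of C4b was 0.0911 and without 1 recovered library 0.103 to 0.164, within a range of 0.0102 to 0.381 over all settings.

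The remaining 2 rises were Gprc5a and Ergic1. Gprc5a (chromosome 6, 135065651 to 135084709, plus strand), a retinoic acid-induced orphan receptor, stood at 27.3, 20.1 and 25.9 FPKM in healthy and at 99.3, 86.7, 106 and 93.9 FPKM in recovered libraries, a change of 2.01 ± 0.23 (adjusted p = 0.0381). Ergic1 (chromosome 17, 26561489 to 26656934, plus strand), a membrane protein of the compartment between the endoplasmic reticulum and the Golgi, stood at 8.78, 11.9 and 9.67 FPKM against 46.5, 54.7, 48.5 and 64.4 FPKM, a change of 2.24 ± 0.28 (adjusted p = 0.0442). Neither overlapped between the groups. Each was called in 6 of 19 alternative settings. Without 1 recovered library the adjusted p of Gprc5a was 0.112 to 0.157 and that of Ergic1 0.115 to 0.172, and without healthy 2 they were 0.0567 and 0.0609. Over all settings tried they ran from 0.00973 to 0.381 and from 0.0102 to 0.381.

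Interferon and antigen presentation genes gave 1 call, which was lower. Ifit2, an interferon-induced antiviral protein, was at 1.76, 3.01 and 1.52 FPKM in healthy and at 0, 0.11, 0.163 and 0.177 FPKM in recovered libraries (log2 change -1.55 ± 0.20, adjusted p = 0.0478). The healthy values lie near the recovered floor of 3 reads on 1 kb, up to 1.916 FPKM. The call of Ifit2 held in 4 of 18 alternative settings and was lost without healthy 1 (adjusted p = 0.0622), without any 1 recovered library (0.131 to 0.186) and with all 3 groups in 1 fit (0.119), within a range of 0.01 to 0.381. It was the only 1 of 44 interferon response genes called, and it lay opposite to the list median of 0.60. Ifit1, from the same gene cluster, was listed at 0 in all healthy libraries and at 3.87, 16.4, 9.03 and 24.6 FPKM in recovered ones (adjusted p = 0.214). Rsad2 (viperin), an antiviral enzyme, stood at 0.404, 0 and 0.271 FPKM against 11.4, 16.1, 7.59 and 21.1 FPKM (adjusted p = 0.126). The groups did not overlap for 10 of the 44, with recovered above for 9 (over all genes, 6.64% above and 10.7% below). Of 22 antigen presentation genes 0 were called by limma (6 higher and 0 lower at an unadjusted p under 0.05), their median change was 0.82, and recovered lay above healthy without overlap for 11 and below for 0. H2-K1, a class I heavy chain, stood at 312, 357 and 325 FPKM in healthy and at 654, 705, 1393 and 691 FPKM in recovered libraries (adjusted p = 0.279). Cd74, the invariant chain of class II, stood at 1.93, 2.33 and 1.22 FPKM against 15.2, 9.31, 25.8 and 10.8 FPKM (adjusted p = 0.247).

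Chaperones, heat shock proteins and cell cycle genes gave 0 calls by limma in 3 lists of 29, 19 and 42 tested genes. At an unadjusted p under 0.05, 9, 8 and 6 were higher and 0 lower. Their medians were 0.27, 0.69 and 0.28. Recovered lay above healthy without overlap for 12, 10 and 11 of them (6.64% over all genes) and below for 0, 1 and 1 (10.7%). Pdia6, a protein disulfide isomerase of the endoplasmic reticulum, came nearest to a call, at 50.4, 50.9 and 49.6 FPKM in healthy and 120, 121, 130 and 142 FPKM in recovered libraries (log2 change 1.32, adjusted p = 0.0559). Hspa5 (BiP), the main chaperone of that compartment, stood at 188, 199 and 200 FPKM against 317, 344, 303 and 272 FPKM (adjusted p = 0.238). In contrast Ddit3 (CHOP), a stress-induced transcription factor, overlapped, at 25.5 to 64.8 FPKM against 1.56 to 60.9 FPKM. Among cell cycle genes, Rrm2, a ribonucleotide reductase subunit, stood at 12.8, 9.40 and 13.3 FPKM against 38.5, 61.3, 110 and 173 FPKM (adjusted p = 0.196). Mki67, the common proliferation marker, overlapped, at 0.502 to 0.681 FPKM against 0.624 to 3.73 FPKM.

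Among cartilage genes 1 abundant gene, Chad, fell, together with scarcer ones. Chad (chromosome 11, 94565047 to 94569127, plus strand), chondroadherin, a leucine-rich protein of cartilage matrix that binds cells, stood at 2426, 2459 and 2441 FPKM in healthy libraries 1 to 3 and at 360, 355, 299 and 586 FPKM in recovered libraries 1 to 4. The change was -2.66 ± 0.30 (adjusted p = 0.0375), and healthy MSCs held 6.11 times the recovered mean. Ucma, a secreted protein of growth plate cartilage, stood at 13.2, 42.9 and 17.8 FPKM in healthy libraries and was listed at 0 in every recovered one (adjusted p = 0.0389). Mia, a small protein secreted by chondrocytes, stood at 16.3, 14.6 and 10.2 FPKM and was also listed at 0 in every recovered library (adjusted p = 0.0115). Col9a1, a chain of cartilage collagen IX, was at 1.79, 5.73 and 3.05 FPKM and 0 in recovered libraries (adjusted p = 0.0442). Chad, Ucma and Col9a1 were the 3 of 19 tested chondrocyte genes that fell, none rose, and the list median was -2.21, with a range of -3.82 to -1.4 over all settings. Ucma, Mia and Col9a1 reached 1 FPKM in no library outside the healthy group and so passed the filter on low values through the healthy libraries alone, which makes their count no support for a fall of the list. Without that filter 0 of the list were called lower by limma. With the filter on the 7 libraries compared, 1 was called higher and 2 lower. With a mean of at least 5 FPKM it was 1 higher and 1 lower, and with healthy 1 and 3 separate 1 higher and 5 lower. Recovered lay below healthy without overlap for 9 of the 19 (10.7% over all genes) and above for 2, Sox5 and Prg4 (6.64%). The 9 include Ucma and Col9a1, whose lack of overlap was fixed by the filter. This share and the list median were thus partly set by the filter, and without it the median was -1.4. Without 1 recovered library the adjusted p of Chad was 0.0642 to 0.164, and without healthy 2 it was 0.0837, within a range of 0.00655 to 0.381 over all settings.

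Col2a1 (chromosome 15, 97975602 to 98004695, minus strand), the main fibrillar collagen of cartilage, did not pass the test. It stood at 35.7, 60.8 and 31.7 FPKM in healthy and at 0.381, 0.0859, 0 and 4.63 FPKM in recovered libraries (log2 change -4.76 ± 0.96, adjusted p = 0.149). Sox9, the transcription factor that drives cartilage genes, overlapped between the groups, at 37.1, 46.9 and 38.1 FPKM against 40.5, 42.7, 36.6 and 66.6 FPKM (log2 change 0.11 ± 0.33). Prg4, lubricin of joint surfaces and tendon sheaths, moved the other way. It stood at 4874, 4097 and 4839 FPKM in healthy and at 19118, 17247, 15503 and 10474 FPKM in recovered libraries, a log2 change of 1.77 that did not pass (adjusted p = 0.0974).

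**Figure D4:**
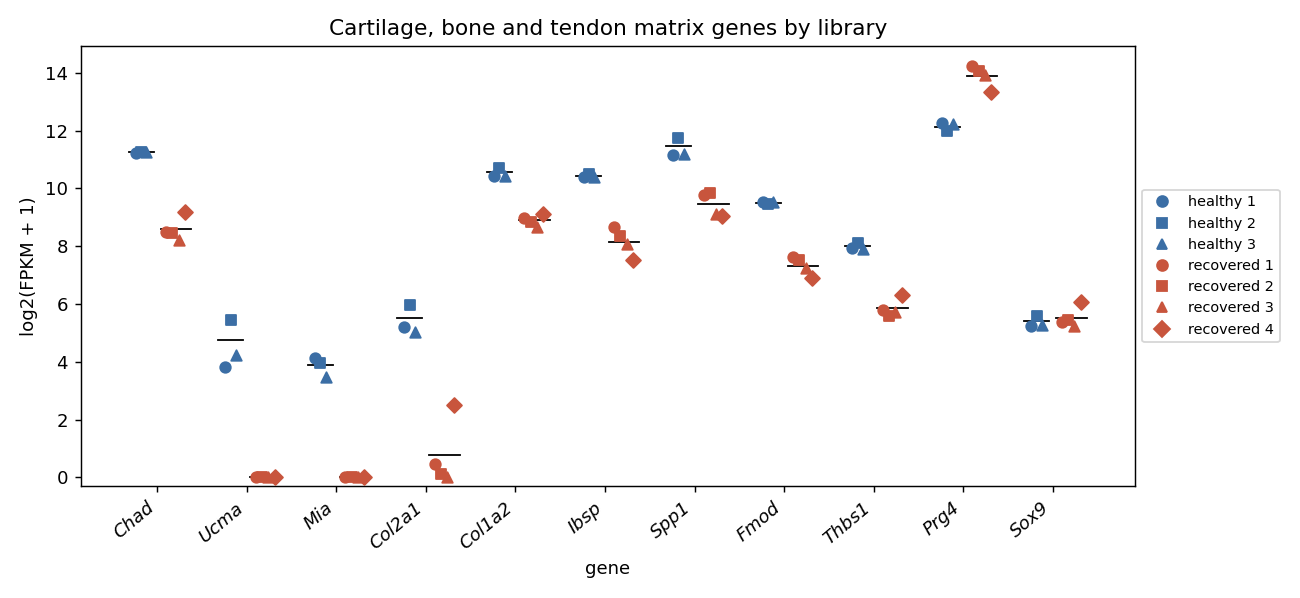
Log2(FPKM + 1) of 11 cartilage, bone and tendon matrix genes, with 1 point per library and a line at each group's mean. Chad, Ucma, Mia, Col1a2, Fmod and Thbs1 were called lower. Col2a1, Ibsp, Spp1 and Prg4 show no overlap but were not called, and Sox9 overlaps.

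Bone matrix genes ran the same way with fewer calls. Col1a2 (chromosome 6, 4504814 to 4541544, plus strand), the alpha-2 chain of type I collagen, stood at 1388, 1672 and 1383 FPKM in healthy and at 497, 458, 404 and 556 FPKM in recovered libraries, a change of -1.68 ± 0.19 (adjusted p = 0.0384). Its partner chain Col1a1 stood at 995, 1070 and 1029 FPKM against 489, 512, 663 and 784 FPKM and was not called (log2 change -0.79 ± 0.24, adjusted p = 0.338). For both chains every recovered library lay below every healthy one. Ibsp, bone sialoprotein, stood at 1354, 1433 and 1347 FPKM against 405, 325, 271 and 182 FPKM (log2 change -2.29, adjusted p = 0.0659). Spp1, osteopontin, stood at 2312, 3469 and 2367 FPKM against 882, 915, 557 and 526 FPKM (log2 change -2.03, adjusted p = 0.0888). Ibsp and Spp1 were called lower with the filter on the 7 libraries compared and with a mean of at least 5 FPKM, but not without a filter. Runx2, the transcription factor needed for osteoblasts, stood at 14.9, 33.3 and 13.1 FPKM against 4.74, 2.91, 4.20 and 4.88 FPKM (adjusted p = 0.278). Of 20 tested osteoblast genes 1 fell, Col1a2, 0 rose, and the median was -1.58. Recovered lay below healthy without overlap for 10 (10.7% over all genes) and above for 2, Atf4 and Dlx3 (6.64%). Dlx3, a homeobox factor of skeletal cells, stood at 2.24, 4 and 2.89 FPKM against 31.5, 20.9, 43.6 and 32.4 FPKM (adjusted p = 0.0697). Without 1 recovered library the adjusted p of Col1a2 was 0.106 to 0.164, and without healthy 2 it was 0.0971, within a range of 0.00973 to 0.381.

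Tendon and general matrix genes added 2 falls. Fmod (chromosome 1, 134037254 to 134048277, plus strand), fibromodulin, which shapes collagen fibrils in tendon, stood at 747, 707 and 742 FPKM in healthy and at 195, 185, 152 and 118 FPKM in recovered libraries, a change of -2.18 ± 0.25 (adjusted p = 0.0384). Thbs1 (chromosome 2, 118111876 to 118127133, plus strand), thrombospondin 1, an activator of latent TGF-beta, stood at 244, 277 and 236 FPKM against 54.9, 47.3, 51.6 and 78.8 FPKM, a change of -2.16 ± 0.27 (adjusted p = 0.0439). Without 1 recovered library the adjusted p of Fmod was 0.0793 to 0.157 and that of Thbs1 0.068 to 0.164, and without healthy 2 they were 0.0837 and 0.122. With all 3 groups in 1 fit they were 0.146 and 0.0725. Over all settings tried they ran from 0.00946 to 0.381 for Fmod and from 0.0102 to 0.381 for Thbs1. The next 3 lists are to be set against shares over all genes of 10.7% below and 6.64% above without overlap. Of 24 tested collagens 2 fell (Col1a2 and Col9a1) and 0 rose, with a median of -0.51. Recovered lay below healthy without overlap for 11 and above for 0. Col9a1, among the 11, passed the filter on low values through the healthy libraries alone. Of 44 matrix glycoproteins and proteoglycans 2 fell (Fmod and Thbs1), with a median of -0.35 and recovered below for 16 and above for 5. Of 26 tendon and fibroblast genes 1 fell, Fmod, with recovered below for 10 and above for 5. Dcn, among the 10 below and also in the list before, was not called. It was called lower with the filter on the 7 libraries compared and with a mean of at least 5 FPKM, but not without a filter. Among the 5 above, Pi16, a marker of adventitial fibroblasts, stood at 22.2, 12.6 and 18.2 FPKM against 58.6, 173, 193 and 110 FPKM (adjusted p = 0.135). Dpt (dermatopontin), a matrix protein of the same cells, stood at 186, 180 and 179 FPKM against 379, 418, 529 and 411 FPKM (adjusted p = 0.0707).

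**Figure D5:**
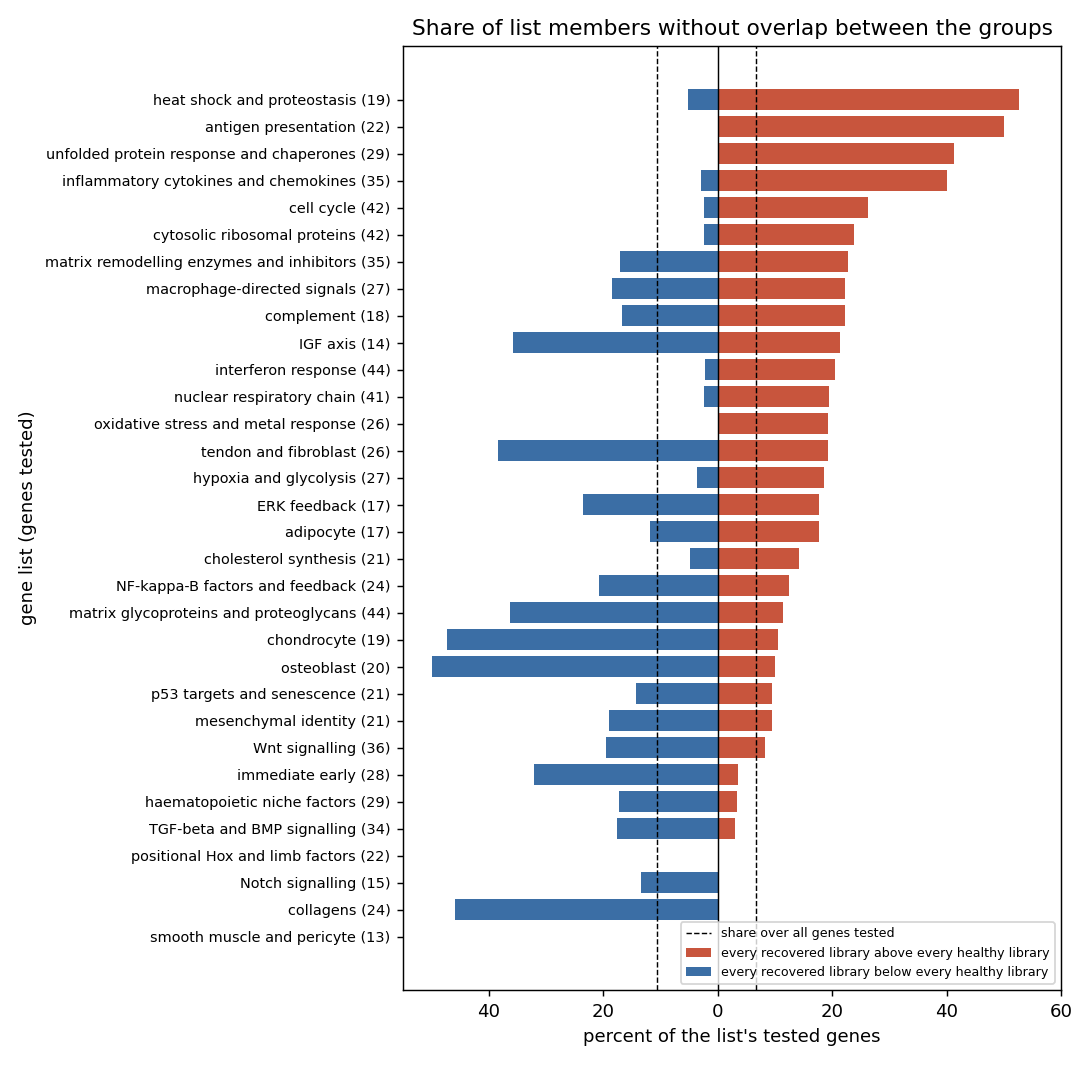
Share of each pathway list's tested genes (marker lists are not drawn) for which every recovered library lay above (red, right) or below (blue, left) every healthy library, with dashed lines at the shares over all genes, 6.64% above and 10.7% below. Bars for heat shock, antigen presentation, chaperone and inflammatory lists reach farthest to the right. Those for osteoblast, chondrocyte and collagen lists reach farthest to the left. The chondrocyte and collagen bars count Col9a1, which passed the filter on low values through the healthy libraries alone, and the chondrocyte bar also Ucma.

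Signalling lists gave 2 calls. Wnt16 (chromosome 6, 22288227 to 22298522, plus strand), a Wnt ligand made by osteoblasts, stood at 9.24, 14.7 and 7.70 FPKM in healthy libraries and was listed at 0 in every recovered one (adjusted p = 0.0197), the only 1 of 36 Wnt genes called. Stc2, stanniocalcin 2, a secreted inhibitor of the protease that frees IGF from its binding proteins, stood at 7.42, 3.28 and 6.38 FPKM against 0.0947, 0, 0 and 0 FPKM (adjusted p = 0.0375), the only 1 of 14 IGF axis genes called. Both calls, of Wnt16 and Stc2, were lost without the filter on low values. Stc2 reached 1 FPKM in no library outside the healthy group and passed that filter through the healthy libraries alone. Wnt16, at a mean of 0.311 FPKM in the pre-leukemic libraries, passed it only with the help of the healthy libraries. Neither call is therefore support for a fall. Of 34 TGF-beta and BMP genes 0 were called by limma (1 lower and 0 higher at an unadjusted p under 0.05), with a median of -0.66. Recovered lay below healthy without overlap for 6 and above for 1, against shares over all genes of 10.7% and 6.64%. Bmp4, a bone morphogenetic protein, stood at 83.5, 112 and 84.4 FPKM against 16, 12.9, 0 and 2.16 FPKM (adjusted p = 0.326). Of 28 immediate early genes 0 were called by limma (6 lower and 0 higher unadjusted), with a median of -0.32. Fos, a subunit of the AP-1 transcription factor, stood at 2610, 3317 and 2615 FPKM in healthy and at 1381, 986, 572 and 1499 FPKM in recovered libraries (adjusted p = 0.296).

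Other named falls were of genes listed at or near 0 in recovered MSCs. Ostn, osteocrin, a peptide secreted by osteoblasts, stood at 23.5, 24.6 and 21.6 FPKM in healthy libraries and 0 in all recovered ones (adjusted p = 0.0171). Vnn1, the pantetheinase vanin 1, stood at 9.58, 13.7 and 9.38 FPKM and 0 in all recovered libraries (adjusted p = 0.0129). Chodl (chondrolectin), Tmeff1, Prss36 (a serine protease), Fam101a and Slmo1 were also at 0 in all 4, from healthy means of 12, 12.7, 24.6, 15.2 and 13.1 FPKM. Ddc, the decarboxylase that makes dopamine and serotonin, stood at 24.7, 10.9 and 19.6 FPKM against 0, 0, 0 and 0.391 FPKM (adjusted p = 0.0389). Bbs2, a subunit of the ciliary BBSome, stood at 20.2, 21.8 and 8.4 FPKM against 0, 0.433, 0.213 and 0.232 FPKM (adjusted p = 0.0392). Of these genes, Ostn, Vnn1, Chodl and Fam101a reached 1 FPKM in no library outside the healthy group. They passed the filter on low values through the healthy libraries alone, so their calls are no support for a fall. Tmeff1, at a mean of 0.61 FPKM (SD 0.946) in the pre-leukemic libraries, passed only with the help of the healthy libraries. Its call is no support either. Without that filter 0 genes were called lower.

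A few markers of blood cells fell as well. Mpo (chromosome 11, 87793581 to 87804413, plus strand), myeloperoxidase of granulocyte precursors, stood at 44.7, 30.1 and 41.9 FPKM in healthy libraries and at 0, 0, 0 and 0.682 FPKM in recovered ones, a change of -5.03 ± 0.58 (adjusted p = 0.0384). Ctsg, cathepsin G of the same cells, stood at 8.63, 20.9 and 16.1 FPKM and 0 in all recovered libraries (adjusted p = 0.0205). These were the 2 of 20 neutrophil and precursor markers called, and the list summed to 127 to 150 FPKM in healthy and 23.7 to 689 FPKM in recovered libraries. Iglc2, an immunoglobulin light chain constant gene with near-identical copies, stood at 33.0, 50.0 and 29.3 FPKM against 0.793, 0, 0 and 0 FPKM (adjusted p = 0.0399), while the 18 B and pre-B markers summed to 440 to 510 FPKM in healthy and 240 to 1320 FPKM in recovered libraries. Cd3e and Zap70, of the T cell receptor pathway, were under 2.5 FPKM in every healthy library and 0 in every recovered one (adjusted p = 0.0429 and 0.0442). Their healthy values lie near the recovered floor of 3 reads on 1 kb, up to 1.916 FPKM. Each of these 2 calls held in 4 of 17 alternative settings. The 22 T and NK markers summed to 30.0 to 47.2 against 11.2 to 78.6 FPKM, and 11 of them were at 0 in all recovered libraries. Summed markers overlapped between the groups for leukocytes at large (156 to 197 against 85.3 to 420 FPKM), monocytes (69.1 to 79.0 against 49.8 to 165 FPKM), endothelium (218 to 266 against 200 to 622 FPKM) and osteoclasts (310 to 356 against 174 to 560 FPKM). For the 10 megakaryocyte and platelet markers the recovered sums, 45.0 to 119 FPKM, lay above the healthy ones, 19.5 to 38.6 FPKM, with Gp1ba, Gp9 and Treml1 at 0 in all recovered libraries. Some marker lists share genes with the stromal, matrix or inflammatory lists. Among them are Ebf1 (B cell), Vcam1 (monocyte), Eng (endothelium), Ctsk (osteoclast) and Lcn2 (neutrophil). The marker sums therefore do not measure those cells alone. The part of these other cells in the changes above was not tested.

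Identity and niche genes of MSCs gave 0 calls by limma among 21 and 29 tested, with medians of -0.23 and 0.07. At an unadjusted p under 0.05, 1 identity gene was higher and 2 lower, and 0 niche genes were higher and 3 lower. Cxcl12 stood at 369, 508 and 372 FPKM in healthy and at 717, 497, 910 and 807 FPKM in recovered libraries (log2 change 0.72 ± 0.30, adjusted p = 0.502). Kitl, Kit ligand, was low in both groups, at 0.841 to 5.84 FPKM against 0.655 to 11.3 FPKM. Lepr, the leptin receptor that marks perivascular MSCs, stood at 22.2 to 26.3 FPKM against 33.9, 18.6, 19.6 and 64.5 FPKM (log2 change 0.29 ± 0.58). These 3 overlapped between the groups. Pdgfra and Pdgfrb, the platelet-derived growth factor receptors often used to sort MSCs, lay lower in every recovered library, at 11.9 to 24.9 and 15.4 to 37.8 FPKM against 34 to 44.2 and 49.9 to 57.2 FPKM (adjusted p = 0.49 and 0.427). Ly6a (Sca-1), another sort marker of MSCs, lay higher in every recovered library, at 1922 to 2580 FPKM against 1103 to 1390 FPKM (adjusted p = 0.18). Csf1, the macrophage growth factor, stood at 40.8 to 75.0 FPKM in healthy and 67.8 to 111 FPKM in recovered libraries (adjusted p = 0.599). Pecam1 of endothelium, at 0.206 to 0.998 against 0.143 to 0.254 FPKM, overlapped.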

How the data were processed

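The authors deposited 1 table of FPKM values for 33433 gene entries and 13 libraries. Per the submitters' processing notes the tools were bcl2fastq, TopHat, Cufflinks 2.2.1 and Cuffnorm on mm10. For the gene annotation and the library-size method, the sources used here give nothing. Depth was inferred without counts, from the spacing of low FPKM values of single-transcript genes. The 13118 genes reaching 1 FPKM in 3 or more of the 13 libraries were tested on log2(FPKM + 1), a scale that understates changes of low genes, with limma 3.58.1 (eBayes with trend, R 4.3.3). The fit held 2 healthy samples (healthy 1 and 3 averaged, which differed by less than other pairs by chi-square of estimated reads) and 4 recovered samples, with 4 residual degrees of freedom, and left out the pre-leukemic libraries. Calls are Benjamini-Hochberg adjusted p under 0.05. Values under 1e-06 FPKM were taken as 0. The scripts were tested on simulated data.

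The groups, gene lists and members were chosen with earlier results of these data known. Named genes were the 15 largest rises and falls among called genes with at least 1 FPKM in every sample of the higher group and a standard symbol, up to 4 called members of each list, up to 3 of each marker list, and 12 genes in any case. Other genes named were chosen after their values were seen. Gene coordinates come from GENCODE on GRCm38 and promoters from RefSeq, which held 31 of the 46 named genes. The alternatives were other filters, scales, pseudocounts, normalizations and fits, and leaving out libraries. A few named genes are not reported here.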

Additional observations from a re-analysis of the deposited data

Results flagged for a closer look

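Of 56 values checked in the 4 recovered libraries, 6 had 1 library far from the other 3. For 4 of these the other 3 libraries are at 0, so any value above 0 stands apart, and each value is below that of 3 reads on 1 kb in its library. Mpo was at 0.682 FPKM in recovered 4 and Ddc at 0.391 FPKM in recovered 4, with 0 in the other 3. Stc2 was at 0.0947 FPKM in recovered 1 and Iglc2 at 0.793 FPKM in recovered 1, again with 0 elsewhere. For the marker sums, chance gives about 1 such library in 20 groups. The summed B and pre-B cell markers reached 1320 FPKM in recovered 3. The summed endothelial markers reached 622 FPKM in recovered 3, where Emcn (endomucin) stood at 140 FPKM and was listed at 0 in the other recovered libraries.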

How the results depend on the processing

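The counts of higher and lower genes, 9 and 94, became 68 and 261 with all 3 groups in 1 fit, 66 and 208 with healthy 1 and 3 separate, 17 and 105 with array weights, 5 and 35 after quantile normalization, and 10 and 136 on the TPM scale. They were 12 and 127 with a pseudocount of 0.1, 9 and 15 with the filter on the 7 libraries compared, and 9 and 7 with a mean of at least 5 FPKM. Without a filter, and with robust eBayes, 4 genes were higher (the globins) and 0 lower, with 1361 and 1277 genes at an unadjusted p under 0.05. Of the 9 rises, 6 were also called under each of these 2 filters (Ergic1, Gprc5a and C4b were not). Of the 94 falls, 11 were also called with the 7-library filter and 3 with the 5 FPKM filter. Dcn, Ibsp, Spp1 and Cst3, which were not among the 94, were called lower under both. Leaving out 1 library gave 0 to 9 higher and 0 to 386 lower genes, the most without healthy 2, where the healthy group is 1 sample assumed to vary like the recovered ones. Leaving out recovered 2 and 3 together, chosen after seeing the data, gave 0 and 0 (1455 unadjusted). The median change of all genes, -0.08, was -0.26 on the TPM scale, -0.20 with the 7-library filter, -0.21 with a pseudocount of 0.1, 0.0 after quantile normalization, and -0.15 to -0.05 leaving out 1 library. With the replicate number as a block, 0 genes were higher and 0 lower (1685 unadjusted). Same-numbered deviations correlated at 0.034, 0.011 and -0.010, and those of healthy 3 and recovered 1, unlike in number, at 0.037. With so few libraries, and healthy 1 and 3 near duplicates, this cannot decide whether the numbers pair the samples. Lepr turned from 0.29 to -0.04 under the replicate block and ran from -0.07 (without recovered 4) to 0.51 leaving out 1 library, and Ptprc turned to -0.02 without recovered 2 and 3; the cause was not tested. Over the 34 named genes that were called and up to 19 alternatives each, the call held in 279 of 633 values and was lost in 354. Of the 225 values of the 12 named genes not called, 3 gained a call and 3 turned. Depth limits the falls of scarce genes: 3 reads on 1 kb were worth up to 1.916 FPKM in recovered 3.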
